A study of Danio rerio with 6 samples.

Results

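Zebrafish rods and cones turn light into an electrical signal through a cascade of proteins that acts downstream of the opsins. An activated opsin switches on the G protein transducin, transducin releases a cGMP phosphodiesterase from its inhibitory subunit, and the fall in cGMP closes the cyclic nucleotide-gated channels of the outer segment. The signal ends when opsin kinases phosphorylate the opsin and arrestins cap it. Rods and cones build these steps from separate paralogs, and the retina of the young zebrafish larva relies mainly on its cones.

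The genes described here are transducin, phosphodiesterase, opsin kinase and arrestin genes chosen by name from the study's table of translation efficiency, of which 9 of the 10 listed symbols were present among 21392 genes. The 7 cone members were gnat2, gngt2b, pde6c, arr3a, arr3b, grk7a and grk1b, and the 2 rod members were gnat1 and saga. In zebrafish grk1b is expressed in cones and its paralog grk1a in rods, so grk1b was counted as a cone gene. The symbol pde6h was not in the table. RefSeq gives it as a synonym of pde6ha, which was in the table and is given beside the members without being counted as one.

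The study set mycn mutant embryos against wild-type AB embryos, both at 72 h after fertilization. There were 2 Ribo-seq libraries and 1 RNA-seq library of each genotype; Ribo-seq sequences the pieces of mRNA that ribosomes shield from RNase. Whole embryos raised in the same medium were used, so photoreceptors were a small share of the material, and the allele, the zygosity and the strain background of the mutants are not given in the sources used here. Nor do the sources say whether the libraries came from separate clutches, so the spread between 2 libraries may be technical. The value analysed is translation efficiency in each of the 4 Ribo-seq libraries. It is taken here as the footprint FPKM of a gene over its mRNA FPKM (fragments scaled to the length of the gene and the size of the library). Because it is a ratio, a higher value can reflect more footprints or less mRNA. It shows neither the number of photoreceptors nor the amount of RNA per photoreceptor.

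Of all genes in a library, 7.79% and 9.98% were listed at 0 in the mutant libraries and 5.86% and 8.15% in the wild-type libraries, and the test covered the 17601 genes with no 0 in any of the 4 libraries. All 9 members were among them, as were the opsin genes rho of rods and opn1sw1, opn1sw2, opn1mw1 and opn1lw2 of cones. The opsin gene opn1mw2 and the photoreceptor transcription factor gene nrl were not, as both were listed at 0 in mutant library 2. A ratio does not show how abundant an mRNA was. Read depth is unknown. As a mark of precision, a value that another gene in the same library shares to 9 significant digits behaves as a ratio of small whole numbers would, and 64.7% to 67.1% of the values above 0 were shared in this way. The cone members gnat2, gngt2b, pde6c, arr3a, arr3b and grk7a had no shared value in any library. In contrast, grk1b had one in 3 libraries, gnat1 in 2 and saga in 1, so neither rod member was free of them.

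Most of these mRNAs had low translation efficiency in both genotypes. Here and below, levels of different genes are set side by side with a limit. The share of footprints and of mRNA fragments that can be mapped may differ by gene, and its part in these differences was not tested. The median over the 9 members was 0.439 and 0.401 in the mutant libraries and 0.259 and 0.295 in the wild-type libraries, whereas the median over all tested genes was 0.779 in each mutant library, against 0.762 and 0.765 in the wild-type libraries. In mutants 5.02% of tested genes lay below arr3b and 7.45% below arr3a, against 0.301% and 1.38% in wild type. By contrast, gngt2b, the gamma subunit of cone transducin, had 93.9% of tested genes below it in mutants and 90.8% in wild type. The rod gene gnat1 had 57.8% below it in mutants and 21.2% in wild type.

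**Figure D1:**
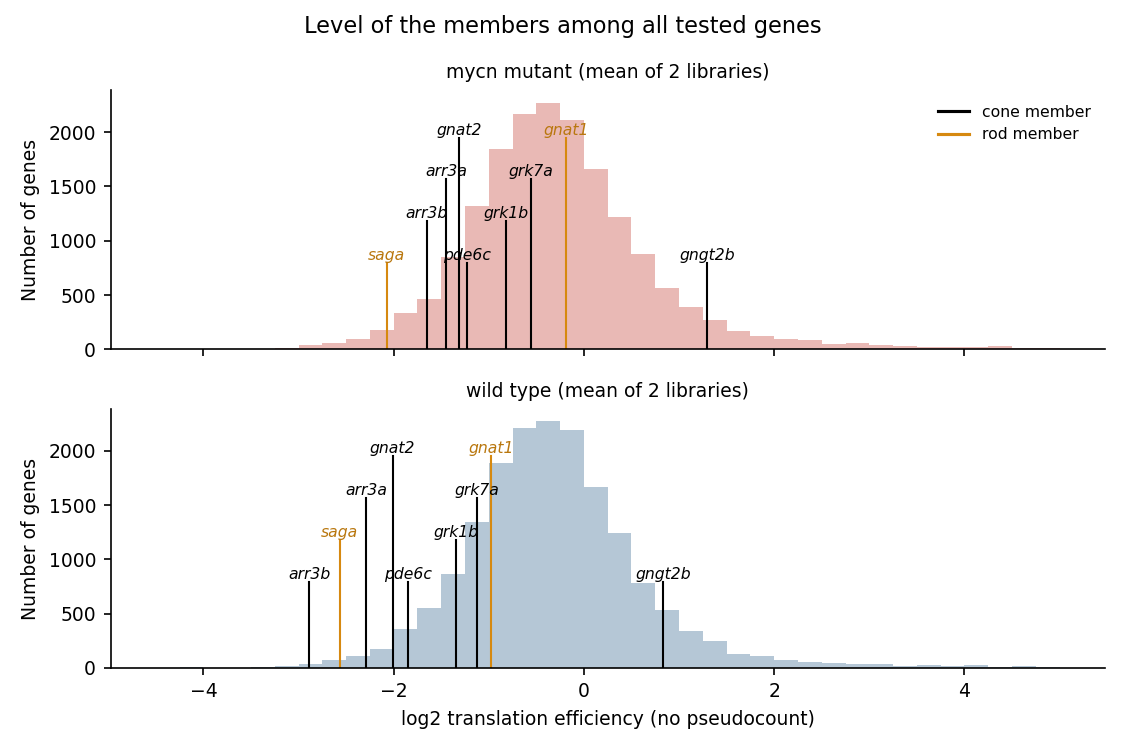
Number of tested genes (y axis) by log2 translation efficiency (x axis, mean of 2 libraries, no pseudocount) in mycn mutants (upper panel) and wild type (lower panel), with cone members marked by black lines and rod members by orange lines; line heights only separate the names, and 102 genes in mutants and 96 in wild type lie outside the axis. Every member except gngt2b and, in mutants, gnat1 lies below the median of the tested genes, with 1.85% of genes below saga in mutants and 0.301% below arr3b in wild type.

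The order of the members by mean level was nearly the same in both genotypes. It ran from gngt2b through gnat1, grk7a, grk1b, pde6c, gnat2 and arr3a to arr3b and saga in mutants, and only arr3b and saga changed places in wild type. Within a genotype, gnat1 overlapped grk7a and grk7a overlapped grk1b in both genotypes, as did arr3b and saga. In mutants grk1b also overlapped pde6c, and arr3a overlapped arr3b. These are overlaps between neighbours in the order. Beyond its neighbours, the mutant range of grk1b, 0.342 to 0.795, also held those of gnat2 and arr3a and overlapped those of gnat1 and arr3b. The library ranges of gngt2b and gnat1, of pde6c and gnat2, and of gnat2 and arr3a were separate in both genotypes, although with 2 libraries a range is a weak measure of spread. In wild type pde6c and gnat2 were apart only narrowly, at 0.2591 for the lower pde6c library against 0.2579 for the higher gnat2 library.

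In the mutants all 9 members had a higher mean translation efficiency than in wild type, by 1.38-fold to 2.35-fold on the ratio of means, and no member passed the test. With limma across the 17601 genes, 0 of the 9 members had an adjusted p under 0.05, and 0 genes (0%) passed over all genes. An unadjusted p under 0.05 was reached by 1 member, arr3a, and by 2023 genes (11.5%). Both mutant libraries lay above both wild-type libraries for 7 of the 9 members, against 4069 of all tested genes (23.1%). Both lay below for 0 members, against 3808 of all tested genes. The log2 fold was above 0 in 9 of 9 members, against 9035 of all tested genes (51.3%). The median log2 fold, on log2(value + 0.1), was 0.48 over the members and 0.013 over all tested genes. The members were chosen with earlier results of these data known, so these counts describe the group and no test was made over it. An exact permutation test of 2 against 2 libraries cannot give a p below 0.333, two-sided, for any one gene. If the 2 libraries of a genotype share 1 RNA-seq denominator, mRNA error moves both alike, so they are not independent.

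**Figure D2:**
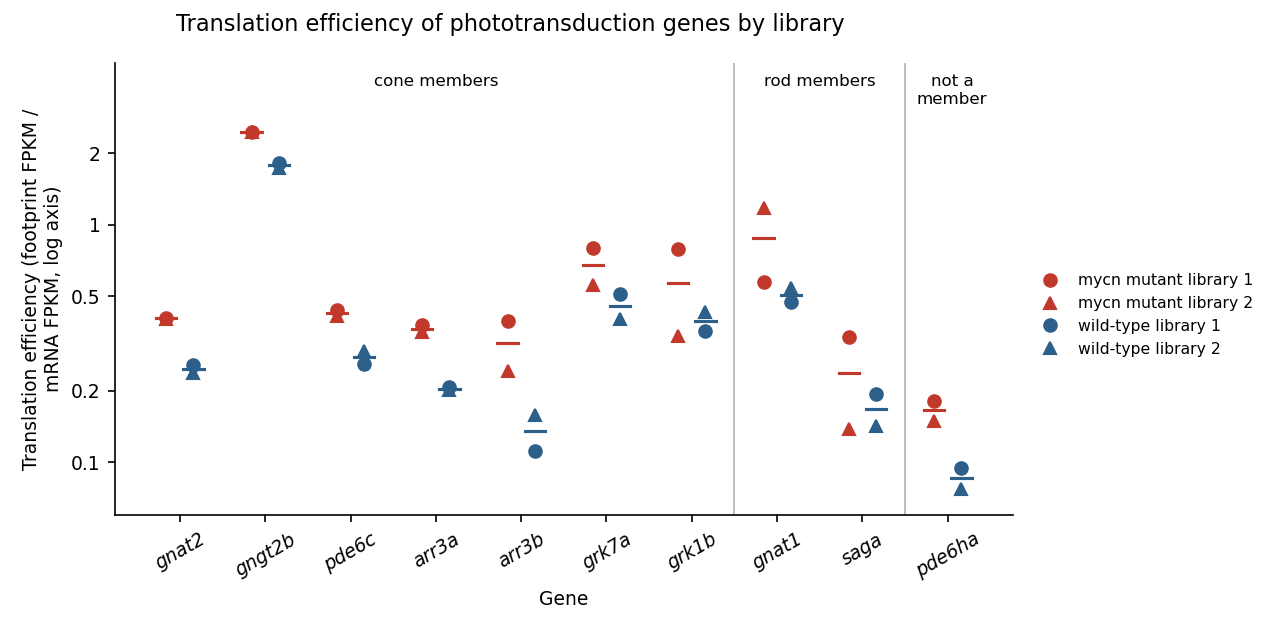
Translation efficiency (y axis, log scale) of each member and of pde6ha (x axis) in the mycn mutant libraries (red, left of each pair) and the wild-type libraries (blue, right); circles are library 1, triangles library 2 and bars the group means. The groups are separate for all genes shown except grk1b and saga, whose mutant library 2 lies below both wild-type libraries, at 0.342 and 0.138.

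Transducin is the first step behind the opsin. For gnat2, the alpha subunit of cone transducin that binds GTP, translation efficiency was 0.407 and 0.401 in the mutant libraries, against 0.258 and 0.238 in the wild-type libraries. The mutant libraries were alike and both lay above wild type, a log2 fold of 0.53 (limma, SE 0.209, adjusted p = 0.460). Its gamma partner gngt2b was at 2.448 and 2.452 in mutants, against 1.82 and 1.74 in wild type. These groups were also apart, although the difference was the smallest among the members on the ratio of means, at 1.38-fold, with a log2 fold of 0.44 (limma, SE 0.193, adjusted p = 0.500). Within each library gngt2b exceeded gnat2 by 6.02-fold and 6.12-fold in mutants and by 7.06-fold and 7.29-fold in wild type.

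The beta subunits of cone transducin overlapped between genotypes. In the table gnb3a was at 0.220 and 0.249 in mutants and 0.226 and 0.306 in wild type, and gnb3b at 0.259 and 0.304 against 0.274 and 0.243. Their log2 folds were -0.12 and 0.089, with limma adjusted p values of 0.885 and 0.909 and 95% intervals of -0.83 to 0.58 and -0.55 to 0.73. The other cone gamma subunit, gngt2a, was at 1.79 and 1.10 in mutants, against 1.10 and 0.947 in wild type, also overlapping. Like gngt2b it stood well above the alpha and beta subunits in every library.

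The phosphodiesterase hydrolyses cGMP. Its cone catalytic subunit pde6c was at 0.439 and 0.415 in the mutant libraries and at 0.259 and 0.295 in the wild-type libraries. The groups were separate, with a log2 fold of 0.48 (limma, SE 0.208, adjusted p = 0.491). The cone inhibitory subunit pde6ha, which holds the enzyme off in the dark, was at 0.182 and 0.149 in mutants, against 0.0947 and 0.0771 in wild type. It was lower than every member in wild type, with 0.511% of tested genes below it in mutants and 0.0568% in wild type. The ratio of means was 1.93-fold. The log2 fold of 0.51 (limma, SE 0.315, adjusted p = 0.594) understates this ratio, since the added 0.1 exceeds the wild-type level.

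Arrestins quench the phosphorylated opsin. In zebrafish arr3a is the arrestin of red and green cones and arr3b that of blue and ultraviolet cones. In the mutant libraries arr3a was at 0.378 and 0.354, against 0.207 and 0.202 in wild type. This was the most even pair of groups among the arrestins, with a log2 fold of 0.61 (SE 0.219, 95% interval 0.0083 to 1.22, limma adjusted p = 0.428). For arr3b the values were 0.394 and 0.242 in mutants and 0.112 and 0.158 in wild type. The groups were apart and the ratio of means, 2.35-fold, was the largest among the members, but the libraries of each genotype spread more widely (log2 fold 0.81, SE 0.321, limma adjusted p = 0.466). Beside ratios this low, the added 0.1 compresses the folds. With 0.01 added in its place the log2 folds were 1.16 for arr3b, 0.81 for arr3a, 0.68 for gnat2, 0.61 for pde6c and 0.46 for gngt2b.

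The opsin kinases varied between libraries. The cone kinase grk7a was at 0.802 and 0.556 in mutants, against 0.512 and 0.403 in wild type. The groups did not overlap, but the gap between the lower mutant and the higher wild-type library was small beside the spread within mutants (log2 fold 0.47, SE 0.261, limma adjusted p = 0.569). Without mutant library 1 its log2 fold was 0.24. For grk1b the mutant libraries were at 0.795 and 0.342 and the wild-type libraries at 0.358 and 0.429. Mutant library 2 lay below both wild-type libraries, and the log2 fold of 0.35 (limma, SE 0.408, adjusted p = 0.780) was -0.16 without mutant library 1 and 0.86 without mutant library 2. The rod paralog grk1a, with 0.612 and 0.547 in mutants and 0.412 and 0.473 in wild type, had separate groups and a log2 fold of 0.33 (limma, SE 0.197, adjusted p = 0.592).

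Of the rod members, gnat1, the rod transducin alpha subunit, was at 0.575 and 1.18 in the mutant libraries, against 0.473 and 0.545 in the wild-type libraries. Both mutant values were above wild type, but mutant library 1 only narrowly, and the log2 fold of 0.61 (limma, SE 0.373, adjusted p = 0.593) was 0.15 without mutant library 2 and 1.07 without mutant library 1. The rod arrestin saga was at 0.337 and 0.138 in mutants, against 0.195 and 0.142 in wild type. Mutant library 2 was the lowest of the 4 libraries, so the groups overlapped. The log2 fold was 0.27 (SE 0.408, limma adjusted p = 0.832), and it was -0.17 without mutant library 1 and 0.71 without mutant library 2.

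Cone and rod members were then set side by side. The median log2 fold was 0.48 over the 7 cone members and 0.44 over the 2 rod members, a difference of 0.042. For levels, the cone median minus the rod median of log2(value + 0.1) varied by 0.116 (SD between libraries of a genotype, pooled). Both the sign and the size of the difference of the folds depended on the processing and on the genes included. With grk1b moved to the rod members it was 0.16. It was -0.0065 with 1 added to the ratios in place of 0.1, -0.0023 without mutant library 1 and 0.22 without mutant library 2. Among members with a mean of at least 0.25 it was -0.13, and gnat1 was then the only rod member. The mutant libraries agreed closely for the cone members gnat2, gngt2b, pde6c and arr3a, with an SD of 0.0028 to 0.0174. They agreed less closely for the remaining 5 members, both rod genes included, with an SD of 0.107 for arr3b to 0.426 for gnat1. Of these 5, grk1b, gnat1 and saga had shared values, whose part in the spread was not tested.

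Direct ratios of cone to rod paralogs within a library were computed for 4 pairs, of which 3 overlapped between genotypes. For the alpha subunits, gnat2 over gnat1 was 0.707 and 0.340 in mutants and 0.546 and 0.437 in wild type, and the mutant values enclosed the wild-type values. For the arrestins, arr3a over saga was 1.12 and 2.56 in mutants and 1.07 and 1.42 in wild type, so these groups overlapped as well. In contrast, arr3b over saga was 1.17 and 1.76 in mutants, against 0.577 and 1.11 in wild type, and the groups were separate by a narrow gap. For the kinases, grk1b over grk1a was 1.30 and 0.625 in mutants, and these values enclosed the 0.869 and 0.906 of wild type. Thus gnat2 had a lower translation efficiency than gnat1 in all 4 libraries, and arr3a a higher one than saga.

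The wider lists of cone and rod cascade genes gave more rod genes to compare. Among the 15 cone cascade genes present, 14 were above 0 in every library, of which 13 had a log2 fold above 0 and 1 below. In 9 (64.3%) both mutant libraries lay above both wild-type libraries, and 0 passed limma at an adjusted p under 0.05. The median log2 fold of the 14 was 0.50. Of 13 rod cascade genes, 9 were tested, of which 7 were above 0 and 2 below. In 2 (22.2%) both mutant libraries lay above and in 1 both lay below, and 0 passed. Over all tested genes 23.1% had both above, so the rod share was near that of all genes. The rod median was 0.26. When 1 library was left out, the cone median ran from 0.45 to 0.58 and the rod median from 0.11 (without mutant library 1) to 0.24. The difference of the medians, 0.24, rests in part on the members themselves. Outside the members, 7 cone genes had a median of 0.51 with 3 separate upwards, and 7 rod genes one of 0.18 with 1 separate upwards, and only 1 of these cone genes and 2 of these rod genes were free of shared values. Whether cone and rod lists differ was not tested.

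**Figure D3:**
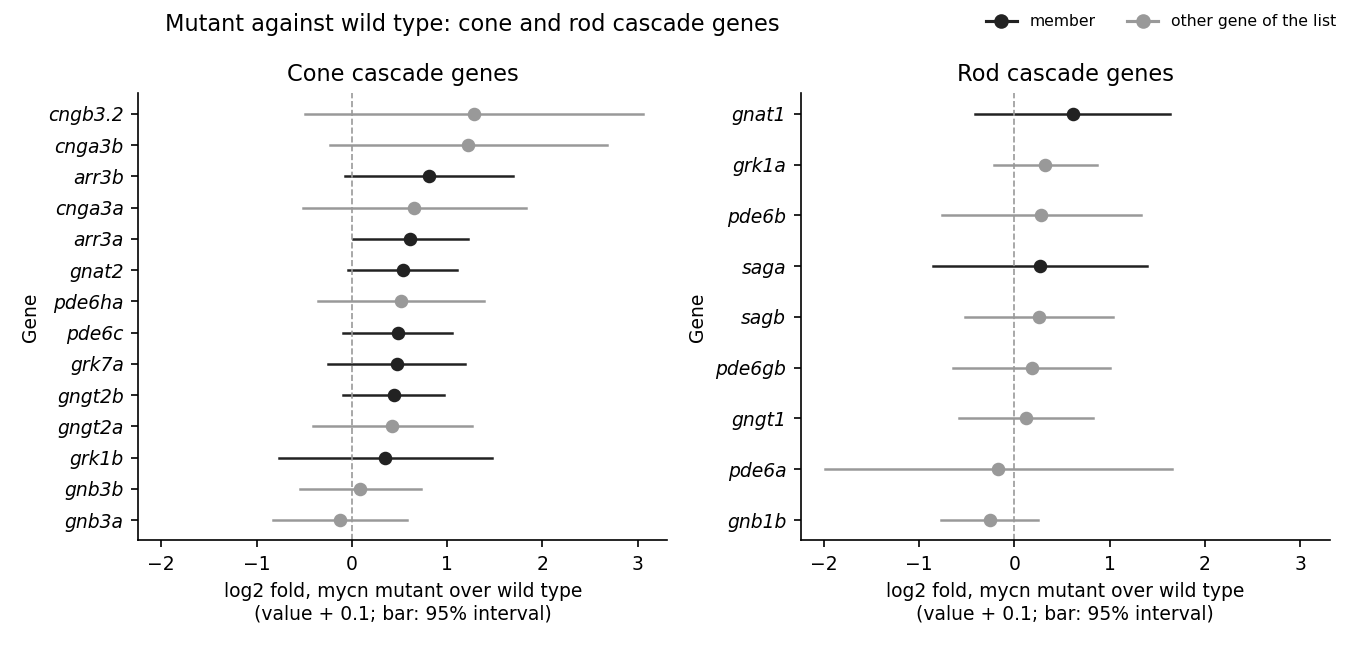
Log2 fold of translation efficiency in mycn mutants over wild type (x axis, 0.1 added, bars are 95% intervals from limma) for the tested genes (y axis) of the cone cascade (left) and the rod cascade (right); members are black and other genes grey. Every interval except that of arr3a crosses 0, and the cone members lie between 0.35 and 0.81.

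The largest log2 folds among the tested genes of the cone list were those of channel genes, which open and close with cGMP. Among the cone channel subunits, cnga3b was at 0.659 and 0.203 in mutants, against 0.0901 and 0.122 in wild type, and cngb3.2 at 0.230 and 0.988 against 0.125 and 0.169. Both had separate groups, log2 folds of 1.22 (SE 0.529) and 1.28 (SE 0.646), and shared values in all 4 libraries. The subunit gene cnga3a was at 0.303 and 0.558 in mutants, against 0.329 and 0.149 in wild type, and overlapped (log2 fold 0.66, SE 0.424). In contrast, cngb3.1 was at 0.212 and listed at 0 in mutants, against 0.906 and 0.614 in wild type. Values were shared with other genes in 3 libraries for cnga3a and in all 4 for cngb3.1. The rod channel genes cnga1a, cnga1b and cngb1a were each listed at 0 in at least 1 library, as was the rod phosphodiesterase inhibitor pde6ga, and were left out of the test.

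Among the remaining rod genes, the catalytic subunit pde6a was at 0.175 and 0.861 in mutants, against 0.434 and 0.523 in wild type. Its partner pde6b was at 0.358 and 0.769 in mutants, against 0.457 and 0.382 in wild type. In both genes the mutant libraries lay on either side of both wild-type libraries. Values were shared with other genes in 3 libraries for pde6a and in all 4 for pde6b. The second rod arrestin, sagb, was at 0.321 and 0.240 in mutants and 0.258 and 0.178 in wild type, and also overlapped (log2 fold 0.26). The beta subunit gnb1b, which is used in many tissues besides rods, was the rod list gene with both mutant libraries below wild type, at 0.828 and 0.778 against 0.981 and 0.9801 (log2 fold -0.26, SE 0.183, limma adjusted p = 0.644). The inhibitory subunit pde6gb had the highest level among the tested rod genes in every library, at 3.16 and 2.04 in mutants and 2.04 and 2.43 in wild type. The rod gamma subunit gngt1 was at 0.935 and 0.830 against 0.657 and 0.968. Both overlapped between genotypes.

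Genes that restore cGMP and end the response lay in both directions. Of 21 such genes present, the test covered 14, 10 with a log2 fold above 0 and 4 below, with a median of 0.31. Both mutant libraries lay above wild type in 8 (57.1%) and below in 1, and 0 passed. Over all tested genes 23.1% had both above, and 3808 of 17601 had both below. The retinal guanylate cyclase gucy2f was at 1.03 and 1.51 in mutants, against 0.431 and 0.351 in wild type (log2 fold 1.46, SE 0.267, limma adjusted p = 0.290). The related gucy2d was at 0.280 and 0.393 against 0.185 and 0.184 (log2 fold 0.61). For rgs9b, of the family that speeds GTP hydrolysis by transducin, values were 0.498 and 0.536 in mutants and 0.0532 and 0.217 in wild type (log2 fold 1.49). The exchanger slc24a2, which extrudes calcium from cones, was at 0.908 and 1.18 in mutants, against 0.744 and 0.442 in wild type (log2 fold 0.75). These 4 genes had separate groups. Values were shared with other genes in all 4 libraries for gucy2f, 3 for rgs9b, 2 for slc24a2 and 1 for gucy2d. Of the 4 genes below 0, gnb5a had separate groups (log2 fold -0.51, shared values in 3 libraries). The others, rgs9bp, guca1a and pdca, overlapped and had shared values in all 4 libraries. Their log2 folds were -0.84, -0.52 and -0.037.

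The opsins stand upstream of the cascade. Of 7 opsin genes present, 5 were above 0 in every library. All 5 had both mutant libraries above both wild-type libraries, against 23.1% of all tested genes. The other genes, opn1mw2 and exorh, were each listed at 0 in 1 library, and their groups overlapped. In mutants opn1mw2 was at 0.305 and listed at 0, against 0.0983 and 0.267 in wild type. The median log2 fold of the 5 was 0.56. The log2 folds were 0.73 for the ultraviolet cone opsin gene opn1sw1, 0.73 for the blue cone opsin gene opn1sw2 and 0.55 for the green cone opsin gene opn1mw1. The lowest was the red cone opsin opn1lw2, at 0.161 and 0.176 in mutants and 0.141 and 0.154 in wild type (log2 fold 0.12), and rho, the rod opsin, was at 0.559 and 0.469 against 0.312 and 0.318 (log2 fold 0.56).

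Other photoreceptor lists were described in the same way. In these lists and those above, genes also expressed outside photoreceptors may owe their values to other tissues of the whole embryo. Of 19 genes of outer segment structure and transport, 15 had a log2 fold above 0 and 4 below, with a median of 0.27. In 6 (31.6%) both mutant libraries lay above both wild-type libraries, against 23.1% of all tested genes. The disc rim protein gene prph2a was at 0.378 and 0.547 in mutants, against 0.182 and 0.219 in wild type (log2 fold 0.89), and rs1a, which encodes secreted retinoschisin, at 0.479 and 0.503 against 0.355 and 0.331 (log2 fold 0.42). The other genes named by rule in this list were rom1b and aipl2, with log2 folds of 1.29 (SE 0.555) and 1.13 (SE 0.533). Values were shared with other genes in 3 libraries for rom1b and in all 4 for aipl2. Of 10 transcription factor genes, 4 were above 0 and 6 below, and the median was -0.091, or 0.062 without mutant library 2. Both mutant libraries lay above wild type in 3 (30.0%) and below in 1. The homeobox gene crx, a regulator of photoreceptor genes, was at 0.241 and 0.412 in mutants, against 0.610 and 0.551 in wild type (log2 fold -0.70, SE 0.282, limma adjusted p = 0.473), while otx5, thrb and otx2b had log2 folds of 0.31, 0.32 and -0.34. The ribbon synapse list, whose median was -0.046 over 14 genes (0.093 without wild-type library 1 and 0.12 without mutant library 1), held genes that lay apart in opposite directions. Both mutant libraries lay above wild type in 6 (42.9%) and below in 5. Over all tested genes 23.1% had both above, and 3808 of 17601 had both below. The complexin genes cplx4a and cplx4c and the vesicle-priming gene unc13ba had log2 folds of 0.72, 0.82 and 0.73, and the calcium channel gene cacna1fa one of -1.03. All 4 values of cplx4c and of cacna1fa were shared with other genes, against 1 of cplx4a and 0 of unc13ba. No gene of these 3 lists passed limma at an adjusted p under 0.05.

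Lists named for the visual cycle and pigment epithelium and for other cells of the retina followed. The visual cycle list was not limited to genes of cells other than photoreceptors. Whole embryos were used, so the values of these genes may come from any tissue that expresses them. Over all tested genes, 23.1% were separate upwards and 3808 of 17601 downwards. Of 20 visual cycle and pigment epithelium genes, 13 had a log2 fold above 0 and 7 below, with a median of 0.35. In this list 9 (45.0%) were separate upwards and 3 downwards. Among them were rbp3, the retinoid carrier between photoreceptors and pigment epithelium, at 0.649 and 0.698 in mutants and 0.221 and 0.289 in wild type (log2 fold 1.13), and the retinoid isomerase rpe65a, at 4.41 and 3.94 against 2.27 and 1.70 (log2 fold 1.05). Its paralog rpe65c and rbp4l had log2 folds of 1.86 and 0.75, with shared values in 4 and 3 libraries. Another paralog, rpe65b, was separate downwards, at 0.379 and 0.430 in mutants against 0.501 and 0.453 in wild type. Its log2 fold was -0.19, with shared values in 4 libraries. The bipolar cell list had a median of 0.24 (0.0038 without mutant library 1) over 11 genes, 7 above 0 and 4 below. Groups were separate upwards in 5 of them (45.5%) and downwards in 2, trpm1a included (log2 fold -0.26). The log2 folds were 0.53 for trpm1b, 0.66 for cabp5b, with shared values in all 4 libraries, and 0.36 for prkcaa. The medians were -0.091 (0.033 without mutant library 2) for 20 amacrine, horizontal and ganglion cell genes, 7 above 0 and 13 below, and -0.047 for 10 Müller glia genes, 4 above and 6 below. Groups were separate upwards in 5 (25.0%) and downwards in 6 of the former, and upwards in 3 (30.0%) and downwards in 3 of the latter. Genes named by rule there were pou4f3, tfap2a, gad2 and gad1b, with log2 folds of 1.35, -0.43, 0.34 and 0.33, and rgs16, glula, cahz and kcnj10a, with 1.17, 0.37, -0.26 and -0.30. All 4 values of pou4f3 and of kcnj10a were shared with other genes, as were 3 of rgs16. No gene of these lists passed. The part of other eye cells in the members' values was not tested.

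**Figure D4:**
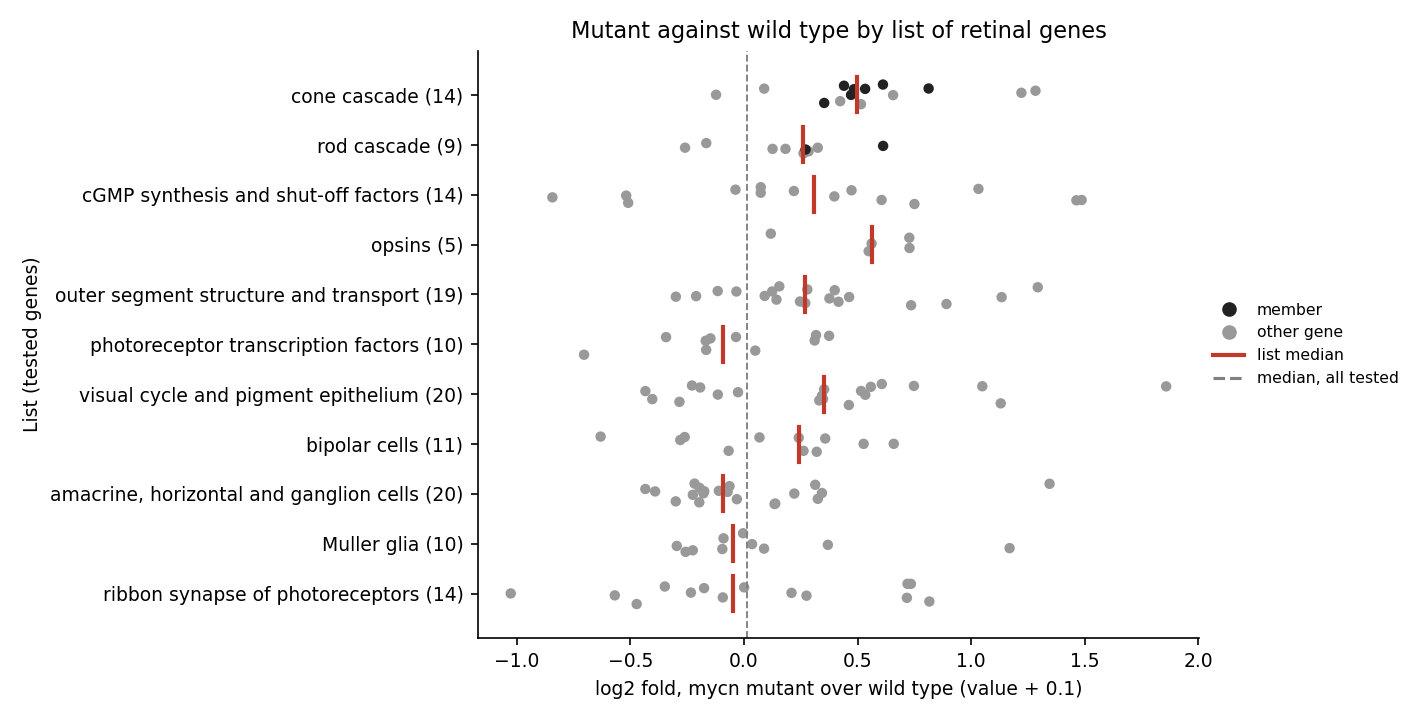
Log2 fold of translation efficiency in mycn mutants over wild type (x axis, 0.1 added) of each tested gene, by list (y axis, number of tested genes in brackets); members are black, other genes grey, red bars are list medians and the dashed line is the median of all tested genes, 0.013. Medians run from 0.56 for opsins and 0.50 for the cone cascade to -0.091 for the transcription factors and for amacrine, horizontal and ganglion cells.

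The precise part of the table was also fitted on its own. Among the 2626 tested genes with no shared value, 36 (1.37%) passed limma at an adjusted p under 0.05, and 0 of the 6 members in it did. Their adjusted p values ran from 0.0849 for arr3a, 0.0957 for gngt2b and 0.106 for gnat2 to 0.135 for pde6c, 0.181 for arr3b and 0.302 for grk7a. All 6 had both mutant libraries above both wild-type libraries, as did 597 of the 2626 genes (22.7%).

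The median profile of the cone members was also set against every gene outside the lists, by the root mean square difference of log2(value + 0.1) over the 4 libraries. The 5 closest were zbtb18 (0.0668), ywhag1 (0.0704), camk2n2 (0.0712), psmc2 (0.0796) and si:ch211-26b3.4 (0.0854). The profile itself was 0.439 and 0.401 in mutants and 0.259 and 0.295 in wild type, and zbtb18 was at 0.451 and 0.391 against 0.254 and 0.331. Among 17601 genes close profiles over 4 libraries are common: 11 genes outside the lists were closer to the profile than gnat2 was, and 174 were closer than arr3a. The other cone members except pde6c lay farther off, with 1377 outside genes closer than grk1b, 2272 closer than arr3b, 2611 closer than grk7a and 16233 closer than gngt2b. For pde6c the count was 0. Its values form the profile in mutant library 1 and both wild-type libraries, and gnat2 forms it in mutant library 2. The closeness of these members was therefore partly fixed in advance.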

How the data were processed

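The authors deposited 1 table of translation efficiency ratios, with a column for each Ribo-seq library. Its column headers name FPKM but no division. Footprint FPKM divided by mRNA FPKM is the reading taken here. Which RNA-seq library was the denominator, any offset, and how multiply mapping reads were counted are not given in the sources used here. STAR, featureCounts and limma, with the build GRCz11, are named in the submitters' processing notes, without roles or versions. FPKM is scaled to library totals, so a shift of all genes cannot be seen. With 1 RNA-seq library a genotype, error of the mRNA measurement is not fully in the spread between Ribo-seq libraries, and p-values may be too small. If both ratios of a genotype have the same RNA-seq library as denominator, none of that error is in their spread. It would then move both libraries of a genotype alike, also in the counts of separate groups.

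From the ratios, log2(value + 0.1) of the 17601 genes above 0 in all 4 libraries was fitted with limma (version 3.58.1, R 4.3.3; empirical Bayes with trend, two-sided, Benjamini-Hochberg adjustment over all genes, threshold 0.05). Each gene had 2 residual degrees of freedom. The code was tested on simulated data. Members and the 11 lists were chosen with earlier results of these data known. Named genes were the members, up to 4 genes per list with the smallest p, and the 5 closest profiles; others were named after their values were seen. The value of 1 gene that this rule names is not reported here. Replicate numbers did not pair the samples. Lists were described by counts and medians, without set tests.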

Additional observations from a re-analysis of the deposited data

How the results depend on the processing

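None of the 9 members passed limma in any alternative run. Of the members' log2 folds, those of grk1b and saga changed sign, both without mutant library 1, and the others kept theirs in the alternatives run. Over the fits that left out 1 library, grk1b ran from -0.16 to 0.86 and saga from -0.17 to 0.71. The median log2 fold over the members, 0.48, was 0.61 with 0.01 added to the ratios, 0.18 with 1 added, and 0.45 to 0.65 when 1 library was left out. It was 0.47 after quantile normalization and 0.46 after median centring. The difference between cone and rod medians, 0.042, was -0.0065 with 1 added and 0.16 with grk1b among the rod members. Among members with a mean of at least 0.25, where gnat1 was the only rod gene, the difference was -0.13. When 1 library was left out it ran from -0.0023 to 0.22. Over all genes of both cascade lists, an alternative chosen after seeing the data, it was 0.24. With the replicate number as a block, the replicate block left the median at 0.48 and called 0 members; same-numbered libraries deviated together by a correlation of only 0.0097. Over all genes, limma called 0 in most fits, but 177 of 21392 without a filter, 6 with 1 added and 3 with a minimum mean of 0.25. Leaving out 1 library moved the list medians from 0.21 to 0.44 for the visual cycle, from 0.16 to 0.36 for outer segment genes and from 0.0038 to 0.25 for bipolar cells. The cause of these shifts was not tested.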
